A study of Anser anser with 16 samples.

Results

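Hypothalami of 4 male geese with a high growth rate (birds 49, 50, 52 and 54) were compared with those of 4 male geese with a low growth rate (birds 33, 37, 38 and 40). These 8 libraries were chosen by tissue and growth rate among the 16 of the study. The other 8 came from the pituitaries of the same birds. All birds belonged to the W33 strain of White Kołuda geese, carried no engineered allele or drug treatment according to the labels, and were sampled at day 108 after rearing on an oat-fattening regime with access to free range. The labels give the growth rate of each bird as high or low, with no weights, so the size of the contrast in growth is not known here. It is not stated how the hypothalamus was dissected.

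The hypothalamus is the part of the brain that couples appetite, body temperature and energy use to the pituitary. Neurons of its arcuate nucleus make AGRP, which drives feeding, or POMC products, which restrain it, and other neurons release the peptides that start or stop the secretion of growth hormone, thyrotropin and the gonadotropins. A dissected piece also holds astrocytes, myelin-forming oligodendrocytes, microglia, blood vessels and the ependymal lining of the ventricle. In such bulk tissue fewer cells of a type and less RNA per cell cannot be told apart.

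Reads were counted for 19448 genes, and library totals ran from 11121900 to 18068100 counts at high growth rate and from 9186730 to 11346500 at low growth rate, so that 3 of the 4 libraries of high growth rate were deeper than all of low growth rate. The part of depth in the differences was not tested. Levels are given as CPM, the counts of a gene relative to those of all tested genes in its library, after TMM scaling. Marker genes of neurons summed to 8232 to 8824 CPM at high and 8830 to 9507 CPM at low growth rate, over 11 of the 15 markers listed. Those of astrocytes summed to 6269 to 10134 CPM at high and 4581 to 7793 CPM at low growth rate. The pituitary hormone gene PRL (prolactin) stood at 9.02 to 11.7 CPM at high and 9.75 to 35.5 CPM at low growth rate. CGA, the glycoprotein hormone alpha chain, stood at 12.2 to 14.9 CPM at high and 12.3 to 61.6 CPM at low growth rate. The libraries thus carried markers of neurons and astrocytes, which do not tell the hypothalamus from other brain regions. Nothing in the labels shows that these 8 libraries were more than 1 sample per bird, and p-values measure the spread between birds.

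Differences between the growth groups were small across the hypothalamic transcriptome. Of 13695 genes tested, edgeR's quasi-likelihood test with Benjamini-Hochberg adjustment called none (0% of genes tested, smallest adjusted p = 0.998), and limma voom also called 0. DESeq2 called 2, RPL30 and an unnamed gene. At an unadjusted p under 0.05 edgeR gave 456 genes, 258 higher (1.88% of genes tested) and 198 lower (1.45%) at high growth rate, limma voom 442 and DESeq2 437. The 456 were 3.33% of genes tested, a smaller share than the 0.05 that passes on average where no gene differs. That edgeR count was 1084 without bird 33, 270 without bird 40, and 311 to 635 without each other bird. The 4 birds of high growth rate all lay above the 4 of low growth rate for 161 genes (1.18%), and all below them for 110 (0.803%). With 4 birds a group, some genes separate in this way by chance alone. The median absolute log2 difference was 0.09, and 90% of genes differed by less than 0.28. A difference beyond 2-fold was fitted for 40 genes (0.292%), 25 higher and 15 lower, of which 4 kept the groups apart. Precision varied with the level of a gene: the median standard error of a log2 difference was 0.30 for genes with 1 to 4 CPM, 0.11 for those with 16 to 64 CPM and 0.09 in the highest level bin.

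The leading named genes of both directions were chosen for groups without overlap and a small p, so their separation is no independent result. Those of the upward direction were headed by components of the cytoplasmic ribosome. RPL30, a protein of the large ribosomal subunit annotated on scaffold KZ155887.1 from 5570644 to 5579808, measured 280 (bird 49), 265 (50), 282 (52) and 268 CPM (54) at high growth rate, against 205 (33), 202 (37), 227 (38) and 206 CPM (40) at low growth rate. The groups did not overlap. The log2 difference was 0.38 (SE 0.07, unadjusted p = 0.000214), and its adjusted p was 0.998 in edgeR but 0.000121 in DESeq2. In the authors' deposited table its adjusted p was 0.0853, so RPL30 was not called there.

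RPL29, also of the large subunit, measured 52.5, 45.0, 50.9 and 46.0 CPM at high growth rate, against 34.5, 36.9, 40.2 and 36.5 CPM at low growth rate (log2 difference 0.39, SE 0.08). RPL31 measured 374, 363, 363 and 371 CPM at high growth rate, against 335, 265, 272 and 231 CPM at low growth rate (0.42, SE 0.10). RPS23, of the small subunit, measured 627, 530, 606 and 582 CPM at high growth rate, against 480, 497, 427 and 409 CPM at low growth rate (0.37, SE 0.09). In none of these genes did the groups overlap, which was a condition of their choice, and each difference exceeded the standard deviation within either group. RPL23 showed the same separation (0.35, SE 0.09).

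The other leading upward genes had varied roles. RNH1, the cytosolic inhibitor of ribonucleases, measured 136, 118, 140 and 140 CPM at high growth rate, against 112, 109, 96.3 and 105 CPM at low growth rate (log2 difference 0.34, SE 0.08). NGLY1, which strips N-glycans from misfolded proteins, measured 49.6, 45.3, 45.1 and 41.6 CPM at high growth rate, against 33.9, 33.2, 36.2 and 38.2 CPM at low growth rate (0.36, SE 0.08). RNASEH2B, a subunit of ribonuclease H2, measured 30.9, 31.4, 29.7 and 32.0 CPM at high growth rate, against 24.0, 24.7, 26.3 and 25.2 CPM at low growth rate (0.31, SE 0.08). The high group lay wholly above the low group in each. PDLIM4 (an actin-associated protein, 0.41, SE 0.11), DNLZ (a partner of the mitochondrial HSP70, 0.40, SE 0.11), BOLA3 (needed for mitochondrial iron-sulfur proteins, 0.34, SE 0.10) and TRAIP (a ubiquitin ligase of the replication machinery, 0.28, SE 0.08) completed the set. None of these genes passed the adjusted test of edgeR.

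**Figure D1:**
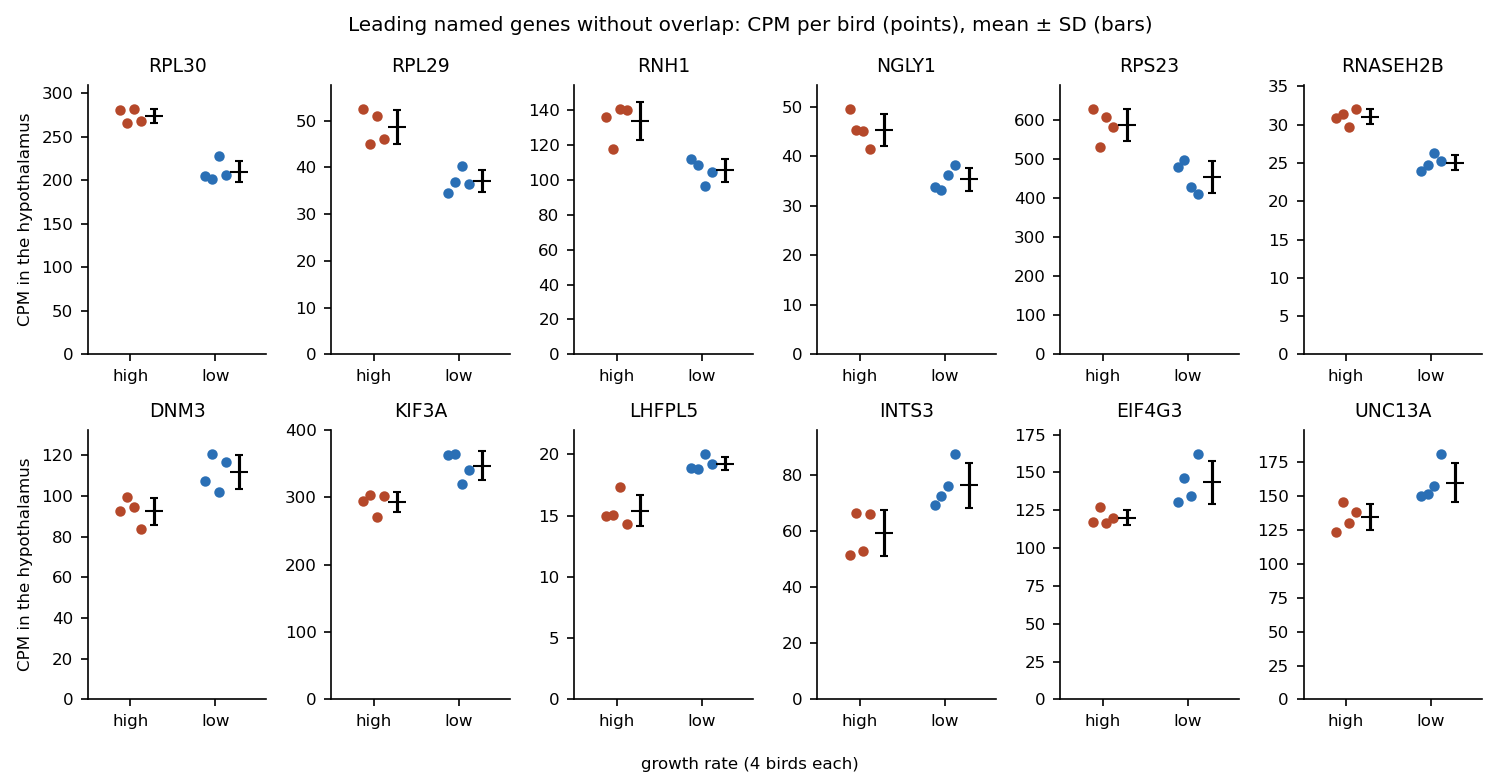
CPM of 12 leading named genes in each hypothalamus, on axes that start at 0, with birds of high growth rate (left, red) and low growth rate (right, blue) and the mean ± SD of 4 birds as bars. The 6 genes of the upper row lie higher and the 6 of the lower row lie lower at high growth rate, without overlap, and the gaps are small beside the level of each gene.

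The leading named genes of the downward direction, taken by smallest p and not by size of difference, included some of synapses and of axonal transport. DNM3, a dynamin that acts in membrane fission at synapses, measured 92.8, 99.6, 94.5 and 83.7 CPM at high growth rate, against 108, 121, 102 and 117 CPM at low growth rate (log2 difference -0.27, SE 0.08, unadjusted p = 0.00668). UNC13A, which primes synaptic vesicles for release, measured 124, 145, 130 and 138 CPM at high growth rate, against 150, 152, 157 and 181 CPM at low growth rate (-0.25, SE 0.08). KIF3A, a motor subunit of kinesin-2, measured 295, 303, 270 and 302 CPM at high growth rate, against 363, 364, 320 and 341 CPM at low growth rate (-0.25, SE 0.07). The groups did not overlap in any of them, although bird 50 of the high and bird 38 of the low group were close in DNM3.

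LHFPL5, a membrane protein known from the hair cells of the inner ear, had a log2 difference of -0.32 (SE 0.10), with 14.3 to 17.3 CPM at high and 18.8 to 20.0 CPM at low growth rate. INTS3, a subunit of the Integrator complex (-0.36, SE 0.11), EIF4G3, a scaffold of translation initiation (-0.25, SE 0.08), and PRKAA2, the catalytic alpha-2 subunit of the energy sensor AMPK (-0.33, SE 0.12), were also below without overlap. PRKAA2 measured 11.1, 12.9, 11.3 and 13.4 CPM at high growth rate, against 15.5, 15.6, 13.7 and 16.6 CPM at low growth rate. The remaining names were TMEM17 (a transmembrane protein of the ciliary transition zone, -0.52, SE 0.17), MFAP2 (a component of extracellular microfibrils, -0.42, SE 0.15), STK36 (a kinase of motile cilia, -0.28, SE 0.09), COG6 (a Golgi tethering subunit, -0.24, SE 0.08) and PIGP (an enzyme subunit of GPI anchor synthesis, -0.24, SE 0.09). An unnamed gene, ENSACDG00005008282, measured 23.8, 22.2, 27.3 and 25.3 CPM at high growth rate, against 34.2, 32.5, 46.8 and 40.5 CPM at low growth rate. Its groups did not overlap, and DESeq2 called it (log2 difference -0.64, adjusted p = 0.0393).

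By gene family, the cytoplasmic ribosome moved most evenly. All 32 tested proteins of the large subunit had a positive log2 difference, with a median of 0.23, a range of 0.09 to 0.42, and 17 of them at an unadjusted p under 0.05. Of the small subunit 21 of 22 were positive, with a median of 0.24 and 16 at that level. Over all genes tested 48.7% were positive, the median was -0.00, and 1.88% were higher at an unadjusted p under 0.05. None of the 54 was called by edgeR after adjustment. The high group lay wholly above the low group for 6 of the large and 5 of the small subunit proteins, against 1.18% of all genes tested.

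Scored per bird as the mean centred log2(CPM + 1), the large subunit stood at 0.13, 0.00, 0.21 and 0.12 in birds 49, 50, 52 and 54 of high growth rate. It stood at -0.02, -0.12, -0.04 and -0.28 in birds 33, 37, 38 and 40 of low growth rate. The groups were separate, but bird 50 lay close to bird 33, and bird 40 was lowest. The small subunit score was 0.17, -0.01, 0.19 and 0.14 at high growth rate, and -0.00, -0.12, -0.05 and -0.32 at low growth rate. There the groups overlapped, since bird 50 fell below bird 33. Without bird 40 the medians were 0.18 and 0.19.

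Genes of the mitochondrion leaned the same way by smaller amounts. Of 52 mitochondrial ribosomal proteins 47 were positive, with a median log2 difference of 0.10 and 5 at an unadjusted p under 0.05. Those 5 were all higher, against 1.88% of all genes tested. MRPL44 measured 66.0, 65.0, 75.4 and 64.3 CPM at high growth rate, against 51.8, 58.8, 60.5 and 54.6 CPM at low growth rate (0.26, SE 0.08), without overlap. MRPS9 overlapped, with 40.3 to 51.7 CPM at high and 30.1 to 47.5 CPM at low growth rate (0.36, SE 0.14). Of the 22 tested subunits of complex I, the NADH dehydrogenase of the respiratory chain, 20 were positive with a median of 0.14. NDUFS5 stood apart without overlap at 154 to 197 CPM at high and 128 to 153 CPM at low growth rate (0.31, SE 0.10), and NDUFB3 overlapped (0.21, SE 0.08). All 5 subunits of complex III and all 5 of complex IV were positive, with medians of 0.03 and 0.11. Of the ATP synthase 7 of 8 were positive (median 0.09), among them ATP5PF (0.26, SE 0.11).

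The birds did not divide cleanly on these mitochondrial lists. The complex I score was 0.12, -0.07, 0.22 and 0.01 in birds 49, 50, 52 and 54, against -0.05, -0.07, 0.02 and -0.16 in birds 33, 37, 38 and 40. Bird 50 lay among the birds of low growth rate and bird 52 was the highest of all 8. Without bird 52 the median of complex I was 0.07, and that of the mitochondrial ribosomal proteins 0.05.

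Other lists of the translation and protein-quality machinery took both signs. Of 40 initiation factors 26 were positive (median 0.04), and EIF4G3 was among the 2 lower at an unadjusted p under 0.05. The share lower at that level was 1.45% over all genes tested. In the tables of assembled genes 16 of 18 initiation factors were positive, with medians of 0.09 (kallisto) and 0.10 (Salmon). Several unrelated lists were also higher in those tables, as given below. Elongation factors were positive in 6 of 9 (median 0.03). The elongation factor EEF1A1, which delivers aminoacyl-tRNAs to the ribosome, measured 3928, 3574, 3727 and 4111 CPM at high growth rate, against 3477, 3201, 3356 and 2560 CPM at low growth rate (log2 difference 0.28, SE 0.10), without overlap. Cytoplasmic aminoacyl-tRNA synthetases were positive in 2 of 18 (median -0.07), where WARS1 for tryptophan was at -0.16 (SE 0.07). All 8 subunits of the chaperonin CCT were negative (median -0.06) with none at an unadjusted p under 0.05. Heat shock proteins and co-chaperones were positive in 19 of 57 (median -0.04). HSPA12A (-0.22, SE 0.08), BAG3 (-0.27, SE 0.10) and DNAJA4 (-0.21, SE 0.08) overlapped between groups. Proteasome subunits were balanced at 13 positive of 28. Splicing factors were positive in 19 of 34, with SNRPD1, a core protein of spliceosomal snRNPs, at 0.24 (SE 0.09). Ribosome assembly factors were positive in 9 of 16 and mTOR pathway genes in 7 of 18, with medians of 0.01 and -0.03.

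**Figure D2:**
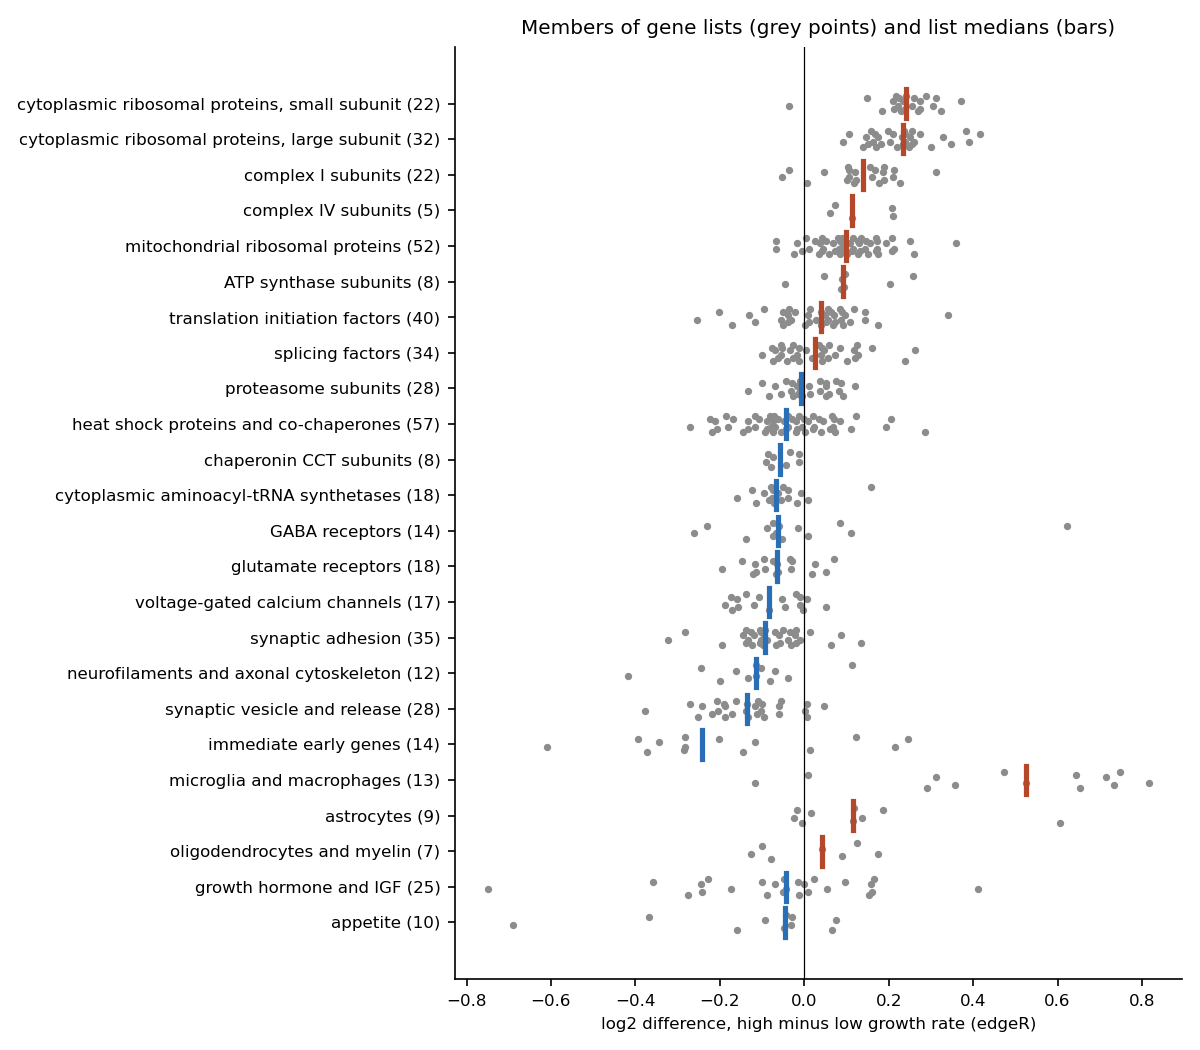
Log2 difference, high minus low growth rate, of each tested member of 24 gene lists (grey points, number tested in brackets) with the list median as a bar, red above 0 and blue below. The ribosomal lists cluster near 0.23 to 0.24, the synaptic lists lie below 0, and the microglial list is spread from -0.12 to 0.82.

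Most genes of the synaptic lists were negative. Of 28 genes for synaptic vesicles and release 24 were negative, with a median log2 difference of -0.13 and 4 at an unadjusted p under 0.05: DNM3, UNC13A, SYNJ1 and SV2C. Over all genes tested 1.45% were lower at that level. SYNJ1, a phosphatase that helps to uncoat vesicles, measured 210, 234, 210 and 211 CPM at high growth rate, against 246, 255, 232 and 272 CPM at low growth rate (-0.22, SE 0.08). Bird 50 of high and bird 38 of low growth rate crossed. SV2C, a vesicle glycoprotein, overlapped at 19.8 to 31.7 CPM at high and 29.0 to 36.2 CPM at low growth rate (-0.38, SE 0.14). Synaptic adhesion genes were negative in 31 of 35 (median -0.09), with NRXN3, a neurexin, at -0.32 (SE 0.15). Voltage-gated calcium channels were negative in 15 of 17 (median -0.08), led by the presynaptic channel CACNA1B (-0.19, SE 0.10). Neurofilament and axonal cytoskeleton genes were negative in 11 of 12 (median -0.11). Among them NEFH, the heavy neurofilament protein, measured 189 to 225 CPM at high and 210 to 345 CPM at low growth rate (-0.42, SE 0.15).

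Glutamate receptors were negative in 14 of 18 and GABA receptors in 10 of 14, with medians of -0.07 and -0.06. GABRD, the delta subunit of extrasynaptic GABA receptors, went the other way (log2 difference 0.62, SE 0.26), with 4.23 to 9.02 CPM at high and 3.78 to 5.46 CPM at low growth rate. The GABA-making enzymes GAD1 (-0.28, SE 0.14) and GAD2 (-0.32, SE 0.18) overlapped between groups. The synaptic vesicle score was -0.13, 0.00, -0.01 and -0.13 in birds 49, 50, 52 and 54, against -0.01, 0.14, 0.01 and 0.13 in birds 33, 37, 38 and 40. The groups overlapped, and birds 37 and 40 carried the upper end. Marker genes of neurons were negative in 9 of 11 (median -0.07), and their summed level was 8232 to 8824 CPM at high and 8830 to 9507 CPM at low growth rate. The part of neuronal content in the synaptic differences was not tested.

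**Figure D3:**
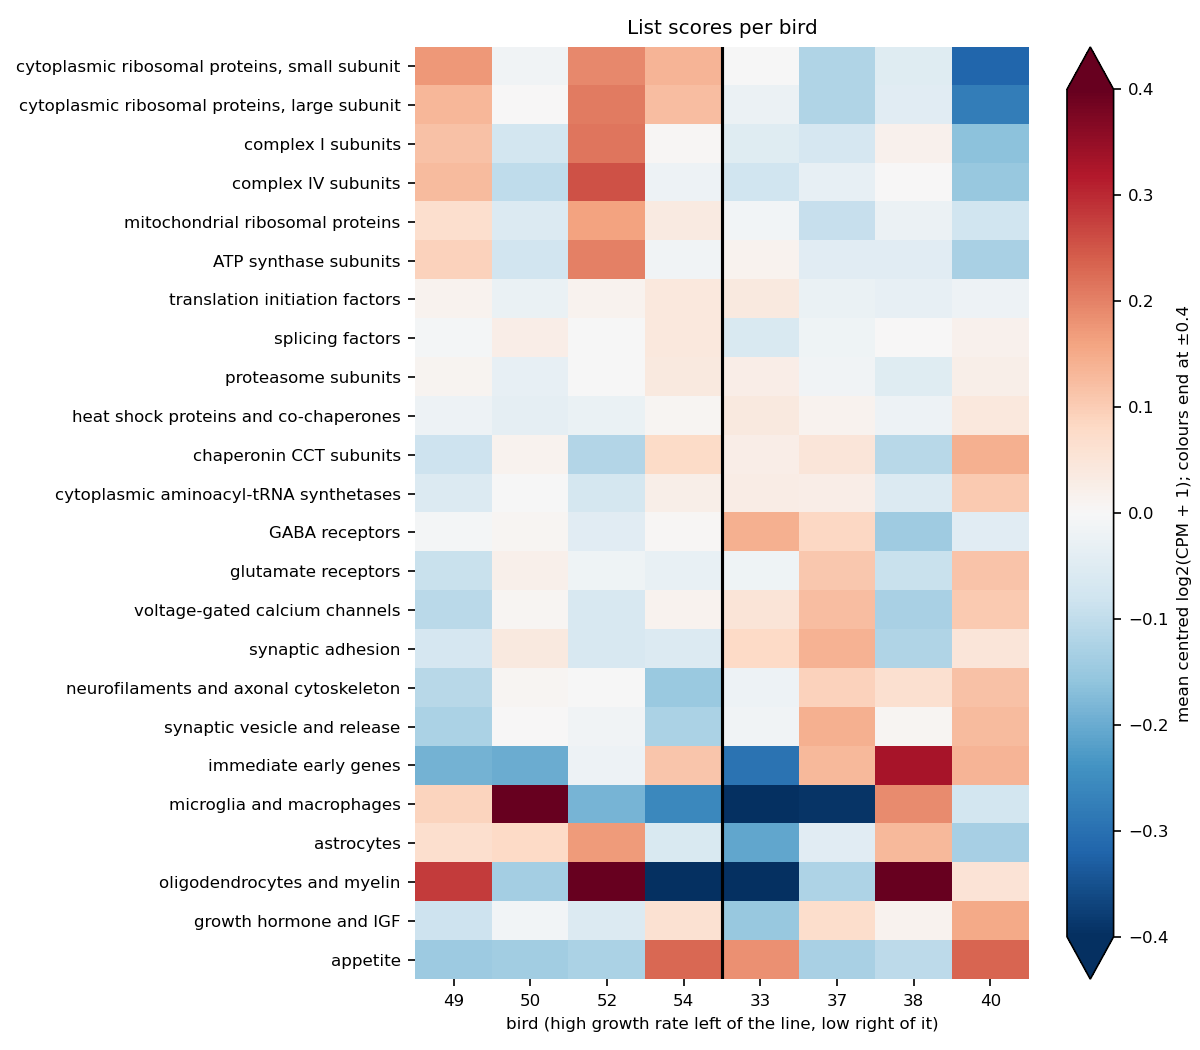
Score of 24 gene lists (mean centred log2(CPM + 1) over members) in each bird, with high growth rate left and low growth rate right of the line. Birds 49, 52 and 54 are high and birds 37 and 40 low on the ribosomal lists, and bird 50 stands out on the microglial list at 1.03.

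Genes were also grouped by the letters of their symbol. Of 114 symbol families with at least 10 tested members, 17 had a median log2 difference above 0.05 and 18 one below -0.05. The highest were RPL (0.24), RPS (0.22), METTL (0.15), COX (0.14) and MRPS (0.11). The RPS stem also holds genes that are not ribosomal proteins, such as the kinase RPS6KA3 (-0.06, SE 0.12). METTL genes encode methyltransferases, and METTL4 (0.28, SE 0.11) kept the groups apart while METTL24 (0.33, SE 0.13) and METTL21A (0.24, SE 0.12) overlapped. COX14 (0.44, SE 0.19), an assembly factor of complex IV, did not overlap between groups, and COX16 (0.27, SE 0.15) did. The lowest families were COL (collagens, -0.17), CACNA (-0.12), UNC (-0.10), BCL (-0.07) and MYO (myosins, -0.07). The UNC and BCL stems join unrelated genes, such as the priming factor UNC13A and the netrin receptors UNC5C (-0.23, SE 0.09) and UNC5B (-0.23, SE 0.12). In BCL the smallest p belonged to the Wnt co-activator BCL9 (-0.21, SE 0.11), and MYO1C, an unconventional myosin, was at -0.24 (SE 0.12).

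The differences varied slightly with the annotated length of the genes. The median log2 difference was 0.02 in 1225 genes spanning up to 2 kb and 0.02 in 1806 genes of 2 to 5 kb. It was -0.03 in 744 genes of 100 to 200 kb and -0.05 in 325 genes over 200 kb, of which 33.8% were positive. Across 12464 genes with a position, which share the same 8 libraries and are not independent, Spearman's rho between span and log2 difference was -0.136. Leaving ribosomal and respiratory-chain symbols out gave medians of 0.02 up to 2 kb and -0.05 over 200 kb. The median of short genes (up to 5 kb) minus that of long genes (over 100 kb) was 0.00, 0.00, 0.10 and 0.02 in birds 49, 50, 52 and 54. It was -0.16, -0.06, 0.08 and 0.03 in birds 33, 37, 38 and 40. The groups overlapped, and bird 33 lay lowest. The median log2 difference of short genes exceeded that of long genes by 0.06, by 0.01 without bird 33, and by 0.04 to 0.10 without each other bird. The CACNA family had a median span of 176046 bases, against 14361 over all genes tested. Median spans were 65102 bases for the synaptic vesicle list, 125187 for synaptic adhesion and 132534 for glutamate receptors. They were 3334 and 3058.5 bases for the large and small ribosomal subunits. Family or list and length thus cannot be told apart here.

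Microglia and macrophage markers were positive in 12 of 13 (median log2 difference 0.53), with LY86 (0.64, SE 0.23) the smallest p. The list score was 0.09, 1.03, -0.19 and -0.26 in birds 49, 50, 52 and 54, against -0.40, -0.39, 0.19 and -0.07 in birds 33, 37, 38 and 40. Bird 50 stood far above the others, whose groups overlapped, and without it the median was 0.00. Over 13 of 19 listed markers the summed level was 553 CPM in bird 50, and 205 to 266 CPM in the other birds of high growth rate, against 181 to 303 CPM at low growth rate. C1QB and C1QC, subunits of complement C1q, were at 25.1 and 51.1 CPM in bird 50. In the other 3 birds of high growth rate they were at 9.70 to 11.4 and 17.6 to 23.1 CPM, and at low growth rate at 7.04 to 12.5 and 13.4 to 26.5 CPM. CX3CR1, the fractalkine receptor, showed 10.4 CPM in bird 50, with a log2 difference of 0.82 (SE 0.40).

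Astrocyte markers were positive in 6 of 9 (median log2 difference 0.11). GFAP, the intermediate filament of astrocytes, measured 2974, 7100, 3400 and 3323 CPM at high growth rate, against 1935, 2559, 4403 and 2148 CPM at low growth rate (0.60, SE 0.32). Bird 50 was again highest and bird 38 exceeded 3 birds of high growth rate. AGT, angiotensinogen, which astrocytes make, measured 903, 902, 870 and 973 CPM at high growth rate, against 747, 770, 916 and 772 CPM at low growth rate (0.19, SE 0.08), and only bird 38 crossed. Myelin genes differed widely among birds, with scores of 0.28, -0.14, 0.61 and -0.71 at high growth rate and -0.65, -0.12, 0.68 and 0.05 at low growth rate, and the median log2 difference of 0.04 says little beside that spread. Ependymal and tanycyte markers were positive in 7 of 10, with RSPH4A, a protein of motile cilia, at 0.42 (SE 0.15). Their median was 0.11, but 0.0045 without bird 54, which had the highest score (0.34). Endothelial and pericyte markers were positive in 9 of 14 (median 0.05), while the smooth-muscle myosin MYH11 was -0.43 (SE 0.16). RSPH4A and MYH11 overlapped between groups. Immediate early genes were negative in 10 of 14 (median -0.24), and their scores overlapped widely, from -0.20 to 0.11 at high and from -0.30 to 0.33 at low growth rate. That median was -0.11 without bird 38, -0.13 in the ENSABRG table, -0.04 by kallisto and -0.10 by Salmon. BTG2 was -0.37 (SE 0.15) and EGR3 -0.61 (SE 0.32). The clock gene PER2 measured 55.7, 57.0, 52.2 and 55.9 CPM at high growth rate, against 75.6, 65.1, 60.7 and 57.1 CPM at low growth rate (-0.23, SE 0.09). Its groups did not overlap, but bird 50 of the high and bird 40 of the low group were nearly level. PER2 was at -0.21 by kallisto and -0.10 by Salmon. The other clock genes did not share its direction as a set: 5 of 13 on the list were positive (median -0.02). Among assembled genes 11 of 14 were positive, with a median of 0.08 by kallisto and by Salmon, where several unrelated lists were also higher.

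The authors' deposited table called 62 genes in this comparison, 33 higher and 29 lower at high growth rate once its ratio is read as low over high. The authors' deposited table does not name the direction of the ratio, and that reading gave all 62 the sign found here. In the counts 60 of the 62 overlapped between the groups. The exceptions were RPL31 and ENSACDG00005008282, against 247 without overlap among the 12464 genes with a position (1.98%). edgeR's quasi-likelihood test called 0 of the 62, and 0 of all 13695 genes tested. Of the 62, 14 reached an unadjusted p under 0.05 in edgeR, against 456 (3.33%) of all genes tested. The 62 were drawn from these same libraries, so their share is no independent result.

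Among the 33 upward genes of the authors' deposited table, the highest library was bird 50 in 28. JCHAIN, the joining chain of secreted immunoglobulins, measured 28.9, 161, 2.79 and 1.23 CPM at high growth rate, against 1.51, 1.85, 11.8 and 57.9 CPM at low growth rate (log2 difference 1.41, SE 1.32). HLA-DRA, an MHC class II chain, measured 332, 768, 143 and 136 CPM at high growth rate, against 107, 117, 297 and 270 CPM at low growth rate (0.80, SE 0.55). In both, bird 49 was second in the high group, and birds 52 and 54 lay within or below the low group.

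SCIN (scinderin, an actin-severing protein, log2 difference 0.92, SE 0.63), LGALS1 (galectin-1, 0.72, SE 0.44), LCP1 (the leukocyte plastin, 0.61, SE 0.41), CFD (complement factor D, 0.61, SE 0.51), PTPN6 (a phosphatase of blood cells, 0.62, SE 0.41) and PDGFRB (a pericyte receptor, 0.52, SE 0.39) all peaked in bird 50. PDGFRB was at -0.11 in the ENSABRG table of the same libraries. Without bird 50, 21 of the 33 kept a positive difference and their median was 0.11, against 0.54 to 0.86 without any other bird. RIDA, an enzyme that clears reactive imines, was different. It measured 93.4, 52.4, 26.6 and 89.4 CPM at high growth rate, against 23.6, 30.0, 21.6 and 39.4 CPM at low growth rate (1.19, SE 0.35), and only bird 52 lay within the low group. BICD1, a dynein adaptor, was at 42.0, 47.1, 23.3 and 20.5 CPM at high growth rate, against 17.9 to 24.1 CPM at low growth rate (0.67, SE 0.25).

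The downward genes of the authors' deposited table followed another set of birds. In 19 of the 29 the highest library was bird 40 and in 7 it was bird 38. SLC26A1, a sulfate transporter, measured 77.2, 10.5, 4.50 and 118 CPM at high growth rate, against 5.50, 106, 70.3 and 174 CPM at low growth rate (log2 difference -0.76, SE 0.95). KRT18, an epithelial keratin, measured 33.7, 8.55, 2.34 and 58.1 CPM at high growth rate, against 2.16, 59.6, 27.3 and 97.9 CPM at low growth rate (-0.87, SE 0.93). Birds 50, 52 and 33 were low and birds 54, 37 and 40 high in both, across the growth groups.

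SLC13A3 (a dicarboxylate transporter, log2 difference -0.42, SE 0.55), SLC16A12 (a creatine transporter, -0.88, SE 0.56), LTF (named lactotransferrin, -0.54, SE 0.56), COL1A1 (a collagen I chain, -0.50, SE 0.35) and COL6A3 (a collagen VI chain, -0.78, SE 0.56) were also highest in bird 40. PRR11, a regulator of the cell cycle, was at -0.64 (SE 0.28). Without bird 40, 26 of the 29 remained negative and their median was -0.31, against -0.46 to -0.92 without any other bird. CGA measured 14.9, 14.7, 12.2 and 14.8 CPM at high growth rate, against 12.3, 15.1, 61.6 and 15.2 CPM at low growth rate (-0.88, SE 0.46), so bird 38 alone was high. PRL was likewise highest in bird 38 at 35.5 CPM (-0.86, SE 0.37). CGA and PRL are made by the pituitary. Of 16 listed pituitary markers 9 were tested, and their sum, mostly SCG2 and CHGA which neurons share, was 3387 CPM in bird 38, the lowest of the low group. The score of the same 9 genes, which weighs each gene alike and includes CGA and PRL, was instead highest in bird 38. It stood at 0.33 there and at -0.24 to 0.12 in the other birds. The part of pituitary tissue in bird 38 was not tested.

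**Figure D4:**
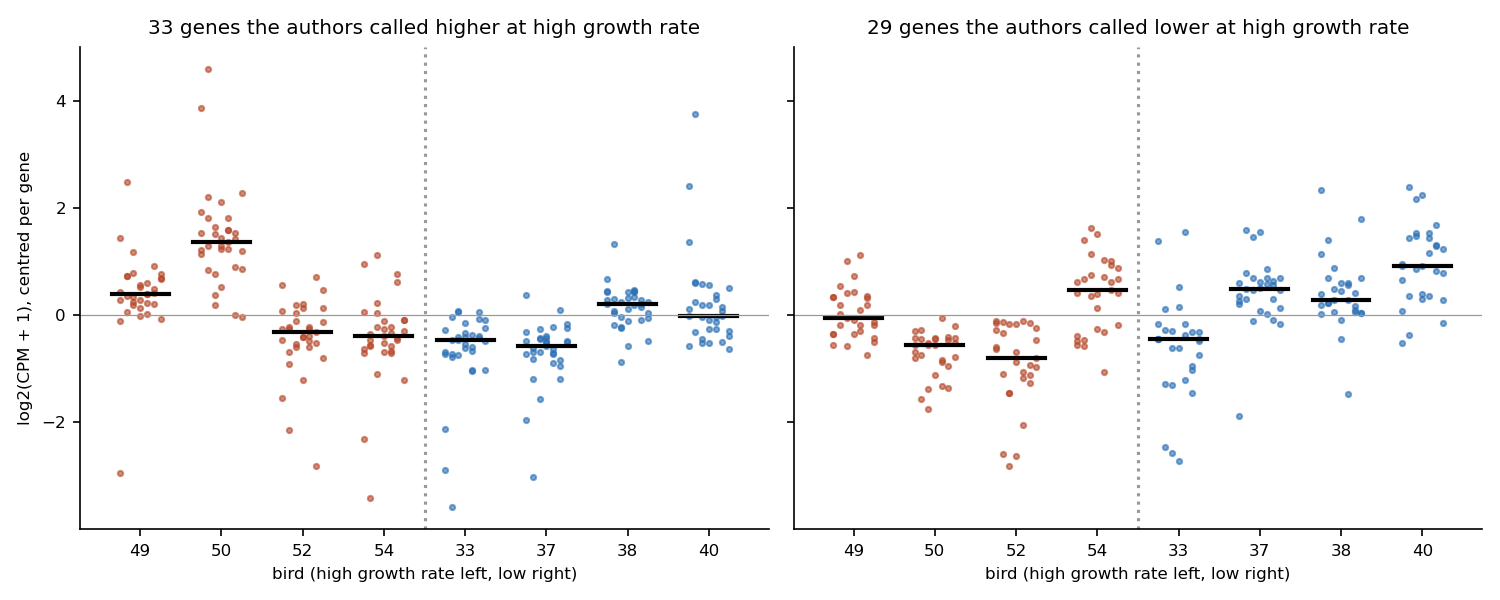
Log2(CPM + 1), centred per gene, in each bird for the 33 genes called higher (left) and the 29 called lower (right) in the authors' deposited table, with black bars at the medians. Bird 50 carries the upper end of the left panel, and in the right panel birds 50, 52 and 33 are low while bird 40 is highest.

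Genes of appetite and of the growth hormone axis gave no call. Of 10 tested appetite genes 8 were negative (median log2 difference -0.05), with 0 at an unadjusted p under 0.05. AGRP measured 8.84, 6.18, 10.7 and 18.4 CPM at high growth rate, against 32.1, 2.41, 13.4 and 23.4 CPM at low growth rate (-0.69, SE 0.58). The low group alone covered the whole range of the high group, and the authors' deposited table called AGRP (adjusted p = 0.0477). POMC measured 67.1, 97.7, 85.3 and 160 CPM at high growth rate, against 111, 71.4, 117 and 125 CPM at low growth rate (-0.05, SE 0.25). The insulin receptor INSR was at -0.16 (SE 0.10), the leptin receptor LEPR at -0.37 (SE 0.28) and the incretin receptor GLP1R at -0.09 (SE 0.25). The cannabinoid receptor CNR1 (-0.04, SE 0.12), the neurotrophin receptor NTRK2 (-0.03, SE 0.10), its ligand BDNF (0.07, SE 0.18), NPY5R (0.08, SE 0.14) and CCKBR (-0.03, SE 0.12) were near 0. The appetite score put birds 54, 33 and 40 at 0.18 to 0.23 and the other 5 birds at -0.14 to -0.11.

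Of 25 tested genes of growth hormone and IGF signalling 16 were negative (median log2 difference -0.04), again with 0 at an unadjusted p under 0.05. IGF2 measured 2.42, 1.71, 0.99 and 3.69 CPM at high growth rate, against 0.97, 4.35, 3.51 and 5.99 CPM at low growth rate (-0.75, SE 0.49). Birds 33 and 52 were lowest and the groups overlapped. Among ligand-releasing proteases PAPPA2 was at -0.36 (SE 0.20) and PAPPA at -0.24 (SE 0.26), and their inhibitor STC2 at -0.24 (SE 0.29). The binding proteins IGFBP3 (0.16, SE 0.15), IGFBP4 (0.16, SE 0.15), IGFBP5 (-0.28, SE 0.30), IGFBP7 (0.10, SE 0.11), IGFBP2 (-0.01, SE 0.12) and IGFALS (-0.09, SE 0.12) took both signs. Receptors were close to 0: GHR -0.07 (SE 0.16), IGF1R -0.04 (SE 0.11) and IGF2R -0.05 (SE 0.07). The somatostatin receptors SSTR1 (-0.00, SE 0.10), SSTR2 (-0.23, SE 0.16), SSTR3 (0.02, SE 0.08) and SSTR5 (0.15, SE 0.17) overlapped between groups.

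In the signalling chain below these receptors, JAK2 (log2 difference 0.01, SE 0.09) and STAT3 (-0.02, SE 0.12) were near 0. The insulin receptor substrates IRS1 (-0.10, SE 0.14), IRS2 (-0.17, SE 0.17) and IRS4 (-0.05, SE 0.09) and the feedback inhibitors SOCS1 (0.41, SE 0.28), SOCS2 (0.05, SE 0.29) and CISH (0.17, SE 0.29) gave no call, and IRS1 and SOCS2 changed sign in the tables of assembled genes. GHR was at 83.8 CPM in bird 54 and 58.0 to 62.3 CPM in the other birds of high growth rate, against 51.3 to 81.2 CPM at low growth rate. Thyroid hormone genes were negative in 8 of 9 (median -0.05), led by the corepressor NCOR1 (-0.17, SE 0.08) and the receptor THRA (-0.10, SE 0.10). With standard errors of 0.07 to 0.58 over the appetite, growth hormone and IGF genes, differences of the size seen in the ribosomal genes could not have been resolved for the noisier ones.

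Several hypothalamic peptides were named only in the assembled gene tables, through their best protein match. Somatostatin, the inhibitor of growth hormone release, measured 401, 570, 538 and 553 estimated CPM at high growth rate, against 491, 546, 389 and 551 at low growth rate in the kallisto table (log2 difference 0.06, SE 0.15). Mesotocin, the avian relative of oxytocin, measured 309, 342, 187 and 223 at high growth rate, against 303, 381, 182 and 322 at low growth rate (-0.16, SE 0.25). The groups overlapped in both. Melanin-concentrating hormone was at 32.0 estimated CPM in bird 54 and 7.23 to 15.0 in the other birds of high growth rate, against 4.59 to 15.8 at low growth rate (0.79, SE 0.52). Cholecystokinin was likewise highest in bird 54 at 608, and 263 to 343 in the other birds of high growth rate, against 203 to 425 at low growth rate (0.44, SE 0.31). Proenkephalin, named PENK in the gene tables, was at 456 to 569 CPM at high and 392 to 731 CPM at low growth rate (-0.17, SE 0.16).

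The 4 quantifications of the same libraries agreed on direction to different degrees, and because they share libraries they are no independent replication. The second gene table, whose identifiers begin with ENSABRG, shared 9316 named genes with the first, and 92.4% had the same sign, with a median absolute difference of 0.01 between the log2 values. Of 267 shared genes at an unadjusted p under 0.05 in the first table, 209 were at that level there too. In the kallisto table of assembled genes 4476 names were shared and 75.1% had the same sign, and by Salmon the numbers were 4348 shared names and 72.9%. For genes at an unadjusted p under 0.05 in the first table the sign was the same in 139 of 144 by kallisto and 136 of 140 by Salmon. edgeR called 0 genes after adjustment in each of the 4 tables. At an unadjusted p under 0.05 it gave 435 (3.15% of genes tested, ENSABRG), 2249 (2.55%, kallisto) and 2850 (2.65%, Salmon). The share in the first table was 3.33%.

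Among the leading genes found in all 4 tables, RPL30 had log2 differences of 0.38, 0.45 and 0.45 in the ENSABRG, kallisto and Salmon tables, NGLY1 0.35, 0.37 and 0.37, and RIDA 1.25, 1.25 and 1.25. RNH1 was smaller among the assembled genes, at 0.32, 0.14 and 0.15, and KIF3A at -0.22, -0.13 and -0.12. The ribosomal lists had medians of 0.23 to 0.30 (large subunit) and 0.24 to 0.31 (small subunit) over the 4 tables, with every tested member positive in each of the 3 other tables. Synaptic vesicle genes had medians of -0.14, -0.08 and -0.07 in the ENSABRG, kallisto and Salmon tables, and synaptic adhesion genes -0.08, -0.03 and -0.04. Other neuronal lists were nearer 0 in the tables of assembled genes: glutamate receptors had medians of -0.00 (kallisto) and -0.01 (Salmon), and neurofilament and axonal genes -0.03 in both, with 4 of 9 positive. Neuron markers turned positive there, with 3 of 5 (median 0.04) by kallisto and 4 of 5 (median 0.04) by Salmon. Lists of other kinds also had higher medians by kallisto and Salmon than in the first table. Proteasome subunits went from -0.01 to 0.07 and 0.09, splicing factors from 0.03 to 0.07 and 0.07, and microglial markers from 0.53 to 0.70 and 0.68. Erythrocyte markers went the other way, from 0.14 to -0.05 and -0.17. A shift across the tables of assembled genes was not tested, so it cannot be told apart from changes of particular lists or genes. Only 2 aminoacyl-tRNA synthetases were matched by name in each table of assembled genes, against 18 in the first table. Both were positive with a median of 0.03, too few to compare the list. The authors' deposited tables overlapped less: of their 46 named calls, 43 were present in the ENSABRG table and 33 were called there, 75% of the 44 named calls of that table. With kallisto 6 were shared, 28.6% of the 21 present and 12.5% of the 48 called there, and with Salmon 0 of 21 present and of 13 called.

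**Figure D5:**
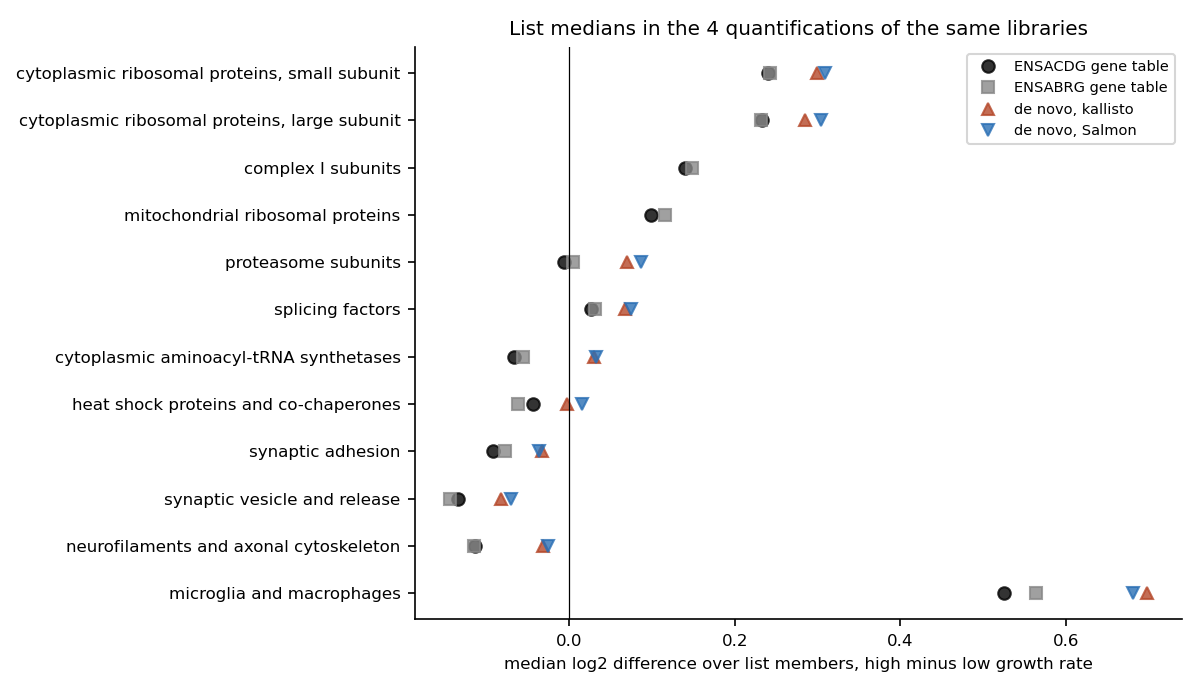
Median log2 difference, high minus low growth rate, of 12 gene lists in the 4 quantifications of the same 8 libraries. The ribosomal and microglial lists lie right of 0 in each table, and the synaptic lists left of it. Complex I and mitochondrial ribosomal proteins had no tested member matched by name in the tables of assembled genes.

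Set against the pituitaries of the same birds, no gene passed the adjusted test of a different response to growth rate. The interaction of growth rate with tissue, fitted in edgeR over all 16 libraries, called 0 of 14394 genes (0%, smallest adjusted p = 0.451), with 206 at an unadjusted p under 0.05. With the bird as a block it called 0, with 339 at that level. The smallest p belonged to LHFPL5, with -0.32 for the hypothalamus, against a pituitary difference of -1.55. The ribosomal proteins were positive in the pituitary too, in 32 of 32 of the large and 21 of 22 of the small subunit, with medians of 0.13 and 0.14. Complex I had a median of 0.17 there. Synaptic adhesion genes had a median of 0.09 in the pituitary, against -0.09 in the hypothalamus, with 1 of 35 at an unadjusted p under 0.05 for the interaction.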

How the data were processed

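RNA was extracted on columns (RIN over 7) and made into libraries with the TruSeq RNA v2 kit, per the labels' protocols. All 16 libraries were quantified in 4 ways, and the authors deposited each as a table. In 2 gene tables, with ENSACDG and ENSABRG identifiers, the deposited values are whole-number read counts. In 2 tables of assembled genes the deposited values are estimated counts from kallisto and Salmon, which were rounded to whole numbers. The submitters' processing notes list kallisto, Salmon, STAR, RSEM, FastQC and DESeq2 with no roles. The sole build they list belongs to the pig, and for the goose assembly a name was not given in the sources used here. As to strand, no setting was stated either, so reads of overlapping genes cannot be told apart. The authors' deposited tables of comparisons hold log2 fold ratios, p-values and adjusted p-values, per the file headers, and for assembled genes the percent identity of the best protein match. They also supplied the gene names and positions.

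The ENSACDG table was the main one. Its 8 hypothalamus libraries were filtered with filterByExpr, scaled by TMM and compared by the quasi-likelihood F test of edgeR 4.0.16 under R 4.3.3, adjusted by Benjamini-Hochberg at 0.05. The standard error is the log2 difference divided by the square root of F. Alternatives were DESeq2 1.42.0, voom of limma 3.58.1, other scaling factors and filters, all 16 libraries, a replicate block, each bird left out, and the other 3 tables. Members, lists and tests were chosen with earlier results of these data known.

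Named genes were the 12 per direction with the smallest p among those whose groups did not overlap, genes passing any adjusted test, the 10 named per direction with the smallest adjusted p in the authors' deposited table, all appetite, releasing hormone, growth hormone and IGF genes tested, up to 4 per other list and up to 3 per symbol family. Some genes that the rule names are not reported here. Other genes and neighbours named were chosen after their values were seen. The same birds gave both tissues, and deviations of a bird correlated at 0.188 to 0.415 between its tissues. Replicate numbers of the labels did not pair birds within the hypothalamus (correlations -0.185 to 0.192).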

Additional observations from a re-analysis of the deposited data

Results flagged for a closer look

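With 332 groups of 4 birds examined, 28 held a bird far from the other 3, and chance alone flags about 1 group in 20. Bird 50 stood apart in the high group for GFAP (7100 CPM), C1QB (25.1 CPM), C1QC (51.1 CPM), SYNJ1 (234 CPM), MRPS9 (40.3 CPM, lowest) and the synaptic adhesion score (0.0380). Bird 54 did so for EGR3 (9.36 CPM), COL1A1 (147 CPM), GLP1R (41.0 CPM), GHR (83.8 CPM), SSTR1 (97.6 CPM), the appetite score (0.23) and the sodium channel score (-0.19, lowest). Bird 52 did so for MRPL44 (75.4 CPM), DNAJA4 (102 CPM) and CCKBR (82.3 CPM), and at the low end for NPY5R (14.0 CPM) and CGA (12.2 CPM). Bird 49 did so for TMEM17 (4.54 CPM) and HSPA12A (82.6 CPM).

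Among birds of low growth rate, bird 38 stood apart for CGA (61.6 CPM), C1QB (12.5 CPM) and AGT (916 CPM), and bird 40 for SCIN (92.7 CPM) and, at the low end, the complex III score (-0.0934). Bird 37 was lowest for ENSACDG00005011411 (11.5 CPM). Bird 33 stood apart for the initiation factor score (0.0375, highest) and the mTOR pathway score (-0.0650, lowest).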

How the results depend on the processing

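edgeR called 0 genes under each alternative run, with 2 called by DESeq2. At an unadjusted p under 0.05 the count was 456 (3.33% of genes tested), and 269 in the fit over all 16 libraries and 721 with the replicate block. It was 2249 (2.55%) in the kallisto table and 2850 (2.65%) in the Salmon table, which hold more genes. Leaving out 1 bird gave 270 (without bird 40) to 1084 genes (without bird 33), and the cause was not tested. The replicate block, by the replicate numbers of the labels, called 0 genes. For growth rate by tissue the block was the bird, and it also called 0. The ribosomal medians kept their sign and stayed within 1 SD of their values under all alternatives. Over all lists, 47 of 1034 alternative medians moved by 1 SD or more, 13 of them outside the tables of assembled genes. Of 117 named genes, 26 changed sign in at least 1 alternative, mostly those near 0.

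Without 1 bird, log2 differences ran from -0.74 to 3.26 for JCHAIN, -0.13 to 1.26 for SCIN, -0.0053 to 0.83 for LCP1, -0.074 to 0.86 for CFD, -0.86 to 0.19 for LTF and -0.95 to 0.028 for SLC13A3. They ran from -0.010 to 0.18 for NPY5R, -0.30 to 0.058 for GLP1R, -0.035 to 0.17 for BDNF, -0.14 to 0.021 for CNR1, -0.087 to 0.058 for NTRK2, -0.11 to 0.061 for CCKBR and -0.34 to 0.11 for POMC. For the growth hormone and IGF genes the ranges were -0.037 to 0.42 (CISH), -0.11 to 0.019 (IRS4), -0.20 to 0.025 (GHR), -0.084 to 0.0021 (IGF1R), -0.018 to 0.061 (SSTR3), -0.054 to 0.22 (SOCS2), -0.10 to 0.069 (STAT3), -0.031 to 0.040 (JAK2), -0.12 to 0.059 (IGFBP2) and -0.090 to 0.048 (SSTR1).

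Signs also turned in the ENSABRG table for PDGFRB (-0.11), IGFBP4 (-0.023) and SSTR1 (0.0059). By kallisto and Salmon they turned for GLP1R (0.015 and 0.018), IRS1 (0.0075 and 0.22), IGF1R (0.054 and 0.067), SOCS2 (-0.071 and -0.038) and STAT3 (0.055 and 0.062), and by Salmon for NTRK2 (0.0021). Upper-quartile scaling turned STAT3 (0.00056), IGFBP2 (0.0041) and SSTR1 (0.016), and the replicate block turned IGFBP2 (0.00080). SSTR1 also turned with RLE factors (0.00050), the CPM filter (0.0018), no filter (0.0069) and DESeq2 (0.00045). The median standard error was 0.41 for genes up to 1 CPM and 0.30 for those of 1 to 4 CPM, which limits what low genes can show.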

Other observations

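The gene with the smallest p and the leading named call of the authors' deposited table among enzymes lie close together. RIDA (log2 difference 1.19, SE 0.35) ends 23.4 kb from RPL30 on scaffold KZ155887.1. POP1, a subunit of ribonuclease P whose annotated end overlaps RIDA, was at 0.43 (SE 0.18, unadjusted p = 0.0366). MATN2, whose span overlaps RPL30, was at -0.15 (SE 0.22), ENSACDG00005002537 between them at 0.19 (SE 0.32), and LAPTM4B, 80.1 kb away, at -0.00 (SE 0.09). These are all 5 tested neighbours within 100 kb, and none passed the adjusted test of edgeR.

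Long noncoding RNAs leaned downward: 179 of 484 were positive, with a median log2 difference of -0.05, and 6 were higher and 16 lower at an unadjusted p under 0.05. Protein-coding genes were positive in 5845 of 11930, with a median of -0.00, and 227 were higher and 151 lower at that level.

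An assembled gene whose best match was immunoglobulin mu (39.7% identity) measured 55.0, 365, 1.90 and 0.66 estimated CPM at high growth rate, against 0.97, 1.61, 24.5 and 91.7 at low growth rate in the kallisto table, the same order of birds as JCHAIN. An assembled gene matched to a haemoglobin beta A entry measured 42.5 estimated CPM in bird 40 and at most 2.67 in each other bird (log2 difference -2.62, SE 1.08). Other haemoglobin matches by kallisto were more abundant and differed less between the groups. Haemoglobin alpha was at 0.03 (SE 0.29), alpha D at -0.16 (SE 0.37) and -0.30 (SE 0.30), and beta at -0.05 (SE 0.30) and -0.22 (SE 0.14). Transthyretin, a carrier of thyroid hormone, was at 9.18, 28.4, 66.8 and 191 estimated CPM at high growth rate, against 17.2, 52.5, 27.3 and 31.4 at low growth rate.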
